A study of Mus musculus with 59 samples.

Results

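RNA of glia that carried the SOD1 G93A mutation was compared with RNA of wild-type glia, both grown beside neurons of the same mutant genotype. The members were chosen by their labels alone, as the 11 libraries read from glia in which the partner neurons were mutant, out of 59 libraries in the series. Mutant glia beside mutant neurons (MTG_MTN) gave 2 libraries at each of days 3, 7 and 14. Wild-type glia beside mutant neurons (WTG_MTN) gave 1 library at day 3 and 2 at each of days 7 and 14. Mutant neurons were therefore common to both groups, and the genotype of the glia is the difference that the labels give between them at each day. The series also holds 12 libraries of glia beside wild-type neurons, 20 of neurons and 16 of spinal cord; the 23 glial libraries shared one fit. The labels name the co-cultures sandwiches, but do not give the source, sex or age of the glia, the promoter that drives the mutant gene, nor which of the kits named was used for which library. They also do not say whether libraries with different numbers came from separate cultures, and the p-values therefore reflect spread among the libraries at hand, which may be technical.

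SOD1 is the cytosolic enzyme that converts superoxide to hydrogen peroxide, and the G93A form causes an inherited form of amyotrophic lateral sclerosis (ALS), in which motor neurons die. In mice that express the human mutant enzyme, astrocytes and microglia are known to shape how fast motor neurons are lost. Cultured brain glia are usually a mixture in which astrocytes grow together with microglia, cells of the oligodendrocyte lineage, ependymal cells and fibroblasts of the meninges, the membranes around the brain.

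Levels are the deposited RPKM (reads per kilobase of gene, scaled to the reads in a library) divided by a scaling factor per library, and are called rescaled RPKM. A log2 change is the difference of log2(rescaled RPKM + 1) between mutant and wild-type glia, which understates the change of genes with low levels. The 11 libraries held 8005447 to 20596495 reads on genes in mutant glia and 8824612 to 21979164 in wild-type glia. Scaling factors ran from 0.857 to 0.945 in 10 libraries and reached 2.23 in mutant glia library 1 of day 3. The astrocyte markers summed to 1041 to 1814 in mutant glia and 1345 to 1966 in wild-type glia, and the microglia and macrophage markers to 1170 to 2723 in mutant glia and 1339 to 2776 in wild-type glia, so the glial label is met by the markers of both. Markers listed for other cells were present as well. The fibroblast and meningeal markers summed to 749.5 to 2127 in mutant glia and 439 to 1850 in wild-type glia. Those of pericytes and smooth muscle summed to 1284 to 2225 and 868.8 to 1720. General neuron markers summed to 73.7 to 262.6 in mutant glia and 75.8 to 207.5 in wild-type glia. The motor neuron markers summed to 2.61 to 22.3 in mutant glia and 3.65 to 15.7 in wild-type glia. Libraries of 1 glial genotype, day and number resembled each other more closely beside the other neurons (SD of the log2 differences 0.137 to 0.299, n = 11 pairs) than 2 libraries of 1 pairing and day did (0.390 to 0.597, n = 5 pairs). Mutant and wild-type glia of the same day and number differed by 0.268 to 0.560 (n = 5 pairs). Their median of 0.320 lay below the 0.450 between 2 libraries of 1 pairing and day.

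Sod1 is the gene whose human mutant form the labels assign to the glia. The entry measured is the mouse gene (mm9, chromosome 16, 90220987 to 90226568, plus strand), and whether reads of a human transgene were counted in it was not tested. Mutant glia had 831 and 195 rescaled RPKM at day 3, against 170 in the wild-type library of day 3. At day 7 mutant glia had 550 and 270, against 285 and 171 in wild-type glia, and at day 14 they had 232.5 and 299.8, against 210 and 174. Mutant glia were higher in each of the 5 pairs of libraries with the same day and number, although the ranges of the groups overlapped. The change of 0.43 (SE 0.13) in the mean of the 3 days did not pass the threshold (limma adjusted p = 0.388), nor did that of 0.80 at day 7 (adjusted p = 0.0763). A high level in library 1 of day 3 was not particular to mutant cells: beside wild-type neurons, library 1 of day 3 reached 1220 in mutant glia and 1216 in wild-type glia.

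Averaged over the 3 days, mutant glia differed from wild-type glia in few genes, and nearly all of these were lower. Of 14279 entries tested, 20 were lower in mutant glia (0.14% of those tested) and 4 were higher (0.028%) at a Benjamini-Hochberg adjusted p under 0.05 (limma). With the values as deposited, 3 of 11 calls were higher. Of the 24, 12 had the same sign in all 5 pairs of same-day, same-number libraries. Leaving out any 1 library left 2 to 10 of the 24 calls, or 23 where that library was wild-type library 2 of day 3. Without the block for the replicate number 2 entries were called, Aoc3 and Enpp2. With libraries of 1 glial genotype, day and number treated as correlated, 16 were called and 14 of the 24 were kept. The 11 libraries fitted alone with the same means and blocks called 0. Across all entries the median change was 0.01, and 54.8% were above 0.

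Aoc3 had the clearest difference, and passed in 23 of 24 settings of the 3-day mean (adjusted p from 3.94e-06 to 0.152). It encodes a copper-containing amine oxidase, also called vascular adhesion protein, which is known from blood vessels, smooth muscle and fat. Its level was 0.931 and 0.571 rescaled RPKM in mutant glia at day 3, against 2.94 in wild-type glia. It was 0.0624 and 0.110 in mutant glia at day 7, against 2.91 and 2.76 in wild-type glia. At day 14 it was 0.215 and 0.128 in mutant glia, against 2.85 and 3.48 in wild-type glia. The highest mutant library thus lay below the lowest wild-type library, and the level hardly moved between days in wild-type glia. The libraries averaged 0.336 ± 0.345 in mutant glia and 2.99 ± 0.283 in wild-type glia (SD, n = 6 and n = 5). Behind these values were 5 to 55 reads per library in mutant glia and 131 to 405 in wild-type glia. The change was -1.64 in the 3-day mean (SE 0.10, limma adjusted p = 1.87e-05), -1.82 at day 7 (adjusted p = 0.000217) and -1.83 at day 14 (adjusted p = 0.00052). At day 3, with 1 wild-type library, the change of -1.28 did not pass (adjusted p = 0.269). Aoc3 lies on chromosome 11 (mm9, 101191919 to 101203253, plus strand). Groups that did not overlap in any of the 11 libraries were found for 11 of the 14279 entries (0.077%), and 4 of these were among the 24 calls: Aoc3, Sspn, Fut10 and the unannotated entry uc007hxv.1.

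**Figure D1:**
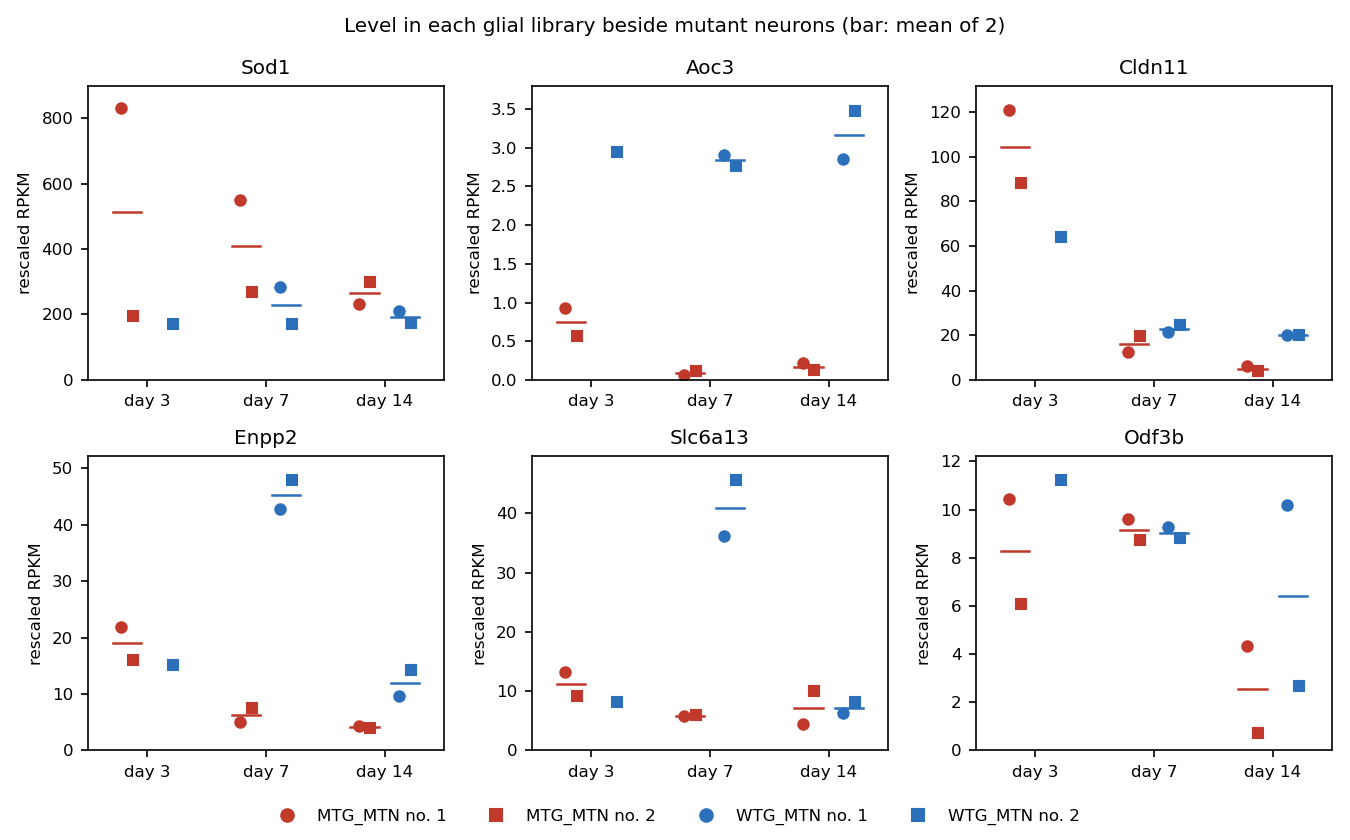
Rescaled RPKM (y axes, from 0) of Sod1, Aoc3, Cldn11, Enpp2, Slc6a13 and Odf3b in each library by day (x axes), with mutant glia in red to the left of wild-type glia in blue, circles for number 1, squares for number 2 and a bar at the mean of 2 libraries. Aoc3 is at or below 0.931 in all 6 mutant libraries and at or above 2.76 in all 5 wild-type libraries, while Enpp2 and Slc6a13 differ mainly at day 7. Cldn11 is higher in mutant glia at day 3 and lower at day 14. Odf3b has a log2 change of -0.97 over days 3 and 14.

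Among the genes that were lower in all 5 pairs, Sspn encodes sarcospan, a membrane protein of the dystrophin complex. Its levels ran from 6.35 to 13.3 rescaled RPKM in mutant glia and from 13.6 to 15.6 in wild-type glia, a change of -0.49 (SE 0.07, adjusted p = 0.0276). Fut10, a fucosyltransferase gene, ran from 4.01 to 6.15 in mutant glia and from 6.29 to 8.13 in wild-type glia (-0.44, SE 0.07, adjusted p = 0.0434). In both, the groups were separate but close. Apcdd1, an inhibitor of Wnt signalling, was lower by a log2 change of -0.76, Sparcl1, a matricellular protein that astrocytes secrete, by -0.56, and Cfap161, a protein of cilia, by -0.56. Apcdd1 has a second entry in the table, at -0.81 with an adjusted p of 0.206, so how reads were shared between the entries bears on it. Csta2 (-0.64), Wnk2 (-0.48), Minar1 (-0.46) and 2 entries without annotation complete the lower group, and the unannotated entry uc008wje.1 was the one that was higher in all pairs (1.71, adjusted p = 0.0276). That entry had 803 and 178 at day 3, 1889 and 239 at day 7 and 178 and 171 at day 14 in mutant glia, against 40.3, then 267 and 105, then 52.0 and 148 in wild-type glia, so the groups overlapped.

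The other calls in the 3-day mean did not have 1 sign in all 5 pairs. Of all 24 calls, 18 also passed at day 7. Some genes of 1 sign changed most at day 7 too, such as Apcdd1 (-1.52) and Sspn (-0.99). Cfap161 changed most at day 14 (-0.84) and Csta2 at day 3 (-0.92). Enpp2, which encodes autotaxin, the enzyme that makes lysophosphatidic acid, had 21.9 and 16.0 rescaled RPKM in mutant glia at day 3, against 15.2 in wild-type glia. It had 5.0 and 7.45 in mutant glia at day 7, against 42.7 and 47.9 in wild-type glia, and 4.36 and 3.89 at day 14, against 9.57 and 14.2. Mutant glia thus lay below wild-type glia at days 7 and 14, and slightly above the 1 wild-type library at day 3, and the 3-day change was -1.27 (SE 0.15, adjusted p = 0.0108). Wnt4, a secreted Wnt ligand, changed by -0.80 (adjusted p = 0.0276), Rec8, a cohesin subunit of meiosis, by -0.82 (adjusted p = 0.0395) and Oas2, an interferon-induced sensor of double-stranded RNA, by -0.61 (adjusted p = 0.049). Trp53i11 (-0.72) and Serpina3k (-0.55), named only to complete the calls, were lower as well. The remaining higher calls were Eif2s3y (1.85, adjusted p = 0.026) and both entries of Ddx3y (1.62 and 1.54), which lie on the Y chromosome. When the mean was taken over days 3 and 14 alone, 2 entries were called, Aoc3 and Odf3b; over days 7 and 14 alone, 162 were.

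At day 7 the difference between the glia was widest: 191 entries were lower in mutant glia (1.34% of those tested) and 60 were higher (0.42%). The calls included 5 entries on the Y chromosome and 9 on the X chromosome. Of the 251, 105 changed by at least 1 on the log2 scale. Leaving out 1 of the 4 libraries of day 7 left 24 to 52 calls, 16 were called without the block for the replicate number, and the 11 libraries fitted alone, with 2 residual degrees of freedom, called 4.

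**Figure D2:**
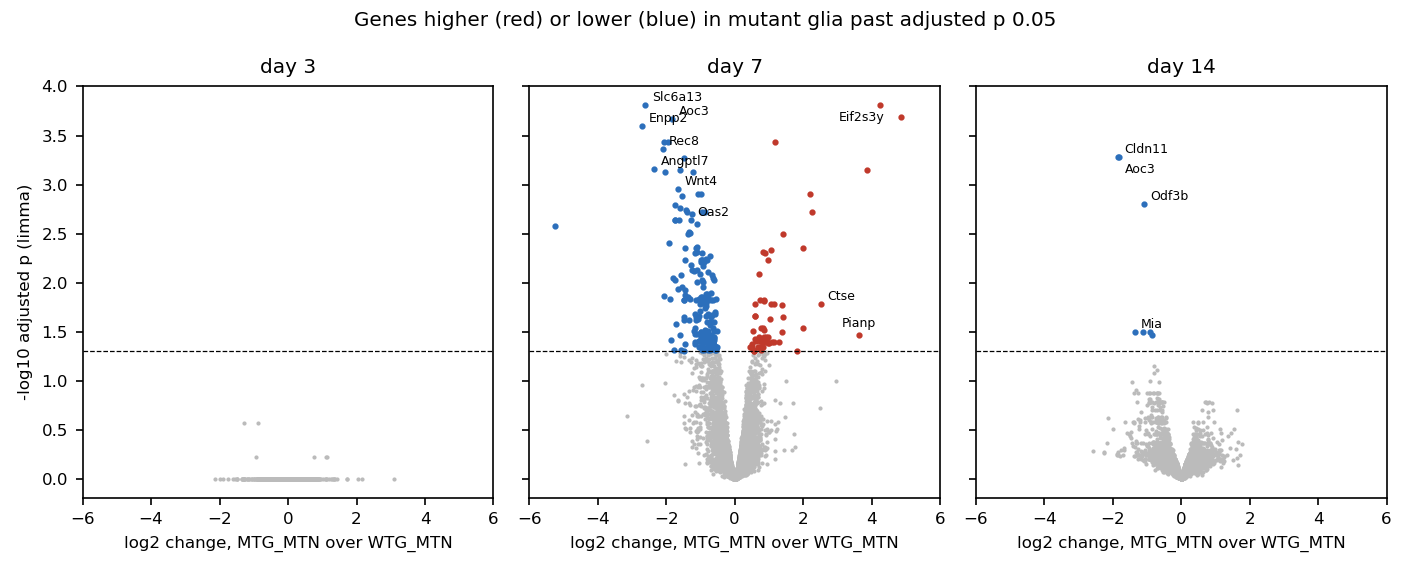
Log2 change of mutant over wild-type glia (x axes) against -log10 of the limma adjusted p (y axis) for the 14279 entries at each day, 1 point per entry, with the dashed line at an adjusted p of 0.05. No entry passes at day 3, 60 entries are higher (red) and 191 lower (blue) in mutant glia at day 7, and 7 are lower at day 14.

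The largest increases at day 7 were genes of the Y chromosome, which only male cells carry. Eif2s3y, a translation initiation factor subunit, had 34.2 and 25.3 rescaled RPKM in mutant glia at day 7, against 0.0445 and 0.0614 in wild-type glia (4.85, SE 0.39, adjusted p = 0.000205). Ddx3y, an RNA helicase, changed by 4.26 and 3.86 in its 2 entries, Kdm5d by 2.27 and Uty, both histone demethylase family members, by 2.21. The level of these genes varied between libraries within a genotype as well. Eif2s3y had 28.3 and 15.4 at day 3 and 13.0 and 42.1 at day 14 in mutant glia, against 23 at day 3 and 3.64 and 31.3 at day 14 in wild-type glia. It followed the day and number of the glia also beside wild-type neurons, where wild-type glia had 0.166 and 0 at day 7 and 4.16 and 32.9 at day 14. Kdm6a, the X-linked counterpart of Uty, which escapes X inactivation, was looked at after its value was seen: it had 2.98 and 3.77 in mutant glia at day 7, against 6.19 and 6.63 in wild-type glia (-0.77, adjusted p = 0.00783). The X-linked counterparts Kdm5c (-0.38), Ddx3x (-0.58 and -0.81) and Eif2s3x (-0.18) did not pass. The unannotated entry uc009tzo.1 fell the most (-5.25, adjusted p = 0.00262), with 0.0505 and 0.0173 in mutant glia at day 7, against 35.7 and 41.2 in wild-type glia. The same entry had 11.2 and 15.8 in mutant glia at day 3, against 0.155 in wild-type glia, and 14.1 and 0.0799 at day 14, against 27.0 and 0.0273. At day 7 the glial genotype and the level of Y-linked genes cannot be told apart, since both wild-type libraries are near 0 for them. This holds for every change at day 7 in this report, and for the share of day 7 in the 3-day means. At days 3 and 14 the levels of Eif2s3y and uc009tzo.1 differed between libraries too. Whether the changes at those days go with these levels was not tested.

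**Figure D3:**
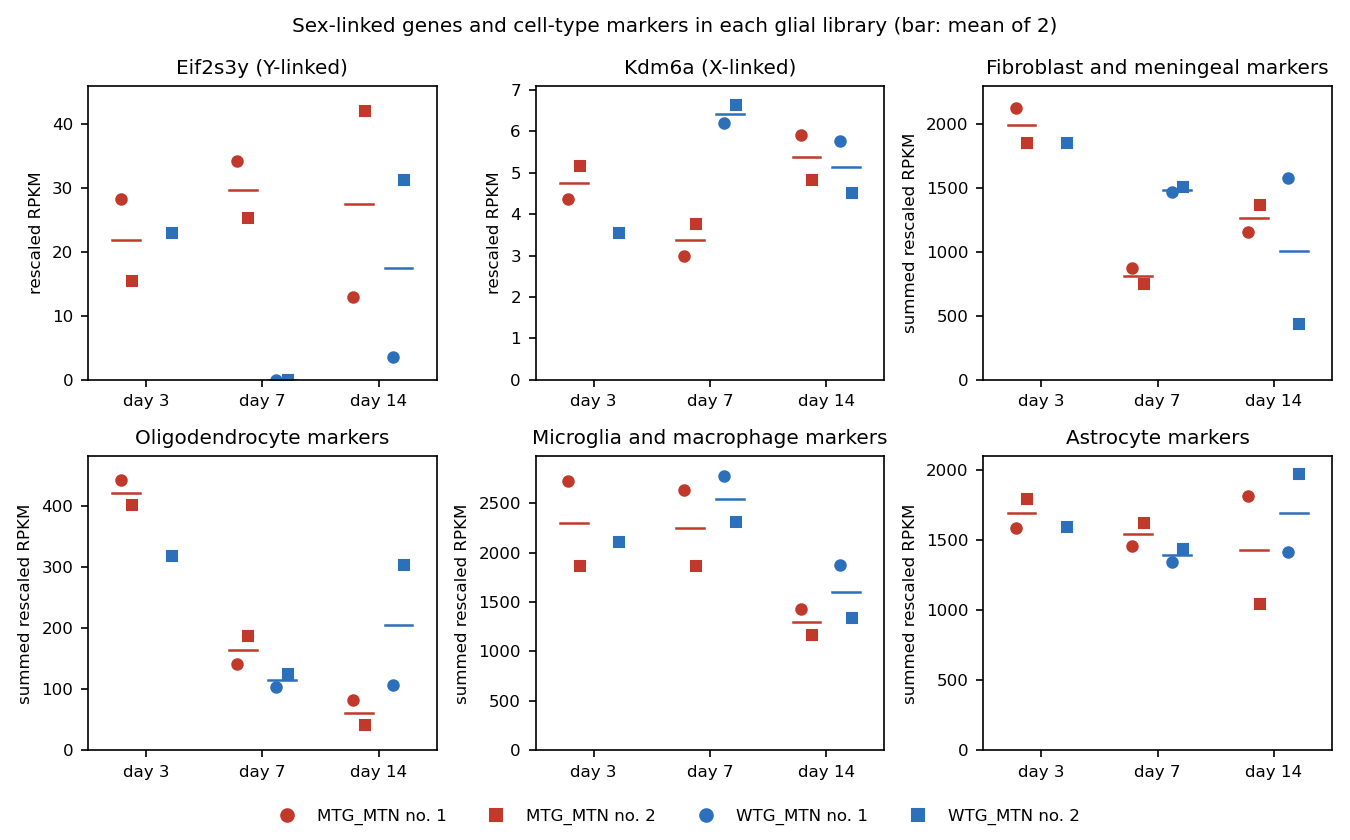
Rescaled RPKM of the Y-linked Eif2s3y and the X-linked Kdm6a, and rescaled RPKM summed over 4 marker lists (y axes, from 0), in each library by day (x axes), with mutant glia in red to the left of wild-type glia in blue, circles for number 1, squares for number 2 and a bar at the mean of 2 libraries. Eif2s3y is at 34.2 and 25.3 in mutant glia and below 0.1 in wild-type glia at day 7, and wild-type library 2 of day 14 holds the lowest fibroblast and meningeal sum, 439.

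Genes of the interferon response were lower together at day 7. Type I interferon acts through transcription factors that bind a repeated element in the promoters of antiviral genes. Of 28 such genes, all tested, 13 were lower in mutant glia at day 7 and none was higher; all 28 changes were below 0, with a median of -0.83, against 0.02 over all entries. Ifi44, an interferon-induced antiviral gene, had 4.63 and 1.36 rescaled RPKM in mutant glia at day 7, against 13.3 and 5.82 in wild-type glia (-1.44, adjusted p = 0.0059). Ifit3, which binds viral RNA together with Ifit1, had 38.4 and 18.5 in mutant glia, against 73.8 and 42.4 in wild-type glia (-1.04, adjusted p = 0.0145). In both of these genes the mutant libraries lay below the wild-type libraries, but the groups did not overlap at day 7 in 33.9% of all entries. Summed over the list, mutant glia had 2090 and 730.8 at day 7, against 2223 and 1125 in wild-type glia, so the sums overlapped. Other calls were Oas2 (-1.28), Ifi27l2a (-1.20), Oasl2 (-1.16), Iigp1 (-1.12), Ifit1 (-1.04), Oas1a (-0.96), Gbp3 (-0.85), Mx1 (-0.82), Gbp2 (-0.80) and the RNA sensor Ifih1 (-0.60). The median change of the list was 0.29 at day 3, where none passed and 24 of 28 were above 0, and -0.47 at day 14, where none passed and 3 were above 0. Leaving out any 1 of the 4 libraries of day 7 left 0 or 1 of the 13 calls, although fewer calls were made there over all entries too. The count was 0 without the block for the replicate number and 0 with the 11 libraries alone, 7 with libraries of 1 glial genotype, day and number treated as correlated, 8 with a pseudocount of 0.1 and 7 without the filter on low values. Microglia, which express many interferon-induced genes, had marker sums of 2635 and 1860 in mutant glia at day 7, against 2776 and 2308 in wild-type glia; their part in the change was not tested.

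The promoters are shown because these genes moved together and the element that interferon acts through is known. RefSeq promoter windows (GRCm38.p6, the 250 bases before each gene's start) were searched on both strands for the core of the interferon-stimulated response element, GAAA followed by any 2 bases and GAAA again, which reads TTTC, any 2 bases and TTTC on the other strand. Windows were at hand for 8 of the 13 lower genes, and 5 of these held the motif, as did 6 of 12 other genes of the list with a window. Of all 27025 genes with a window, 3.46% held it. The shares were 62.5% among the lower genes and 50% among the others of the list, a difference that was not tested. The list was fixed as genes of the interferon response, so its excess over all genes does not bear on the change in mutant glia. Each sequence below starts 10 bases before its first motif and ends at the base before the gene's start, in the direction of transcription, with the motif in capitals. Overlapping motifs run into 1 stretch of capitals in Oas1a and Gbp3.
Ifit1, chr19:34640775-34640888, plus strand: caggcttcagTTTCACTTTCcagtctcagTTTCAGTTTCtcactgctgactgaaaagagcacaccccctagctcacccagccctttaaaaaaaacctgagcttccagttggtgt
Ifit3, chr19:34583363-34583528, plus strand: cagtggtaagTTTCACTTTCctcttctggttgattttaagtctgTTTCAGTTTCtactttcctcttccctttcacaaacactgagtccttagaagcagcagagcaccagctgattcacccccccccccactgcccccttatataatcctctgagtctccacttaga
Gbp2, chr3:142620594-142620662, plus strand: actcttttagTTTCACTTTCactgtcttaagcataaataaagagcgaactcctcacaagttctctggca
Gbp3, chr3:142559989-142560043, plus strand: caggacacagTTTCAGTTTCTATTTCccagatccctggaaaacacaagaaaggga
Oas1a, chr5:120907526-120907555, minus strand: cccttctcggGAAATGGAAACTGAAAatct
The motifs begin 104 and 85 bases before the start in Ifit1, 156 and 122 in Ifit3, 59 in Gbp2, 45 and 39 in Gbp3, and 20 and 14 in Oas1a.

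**Figure D4:**
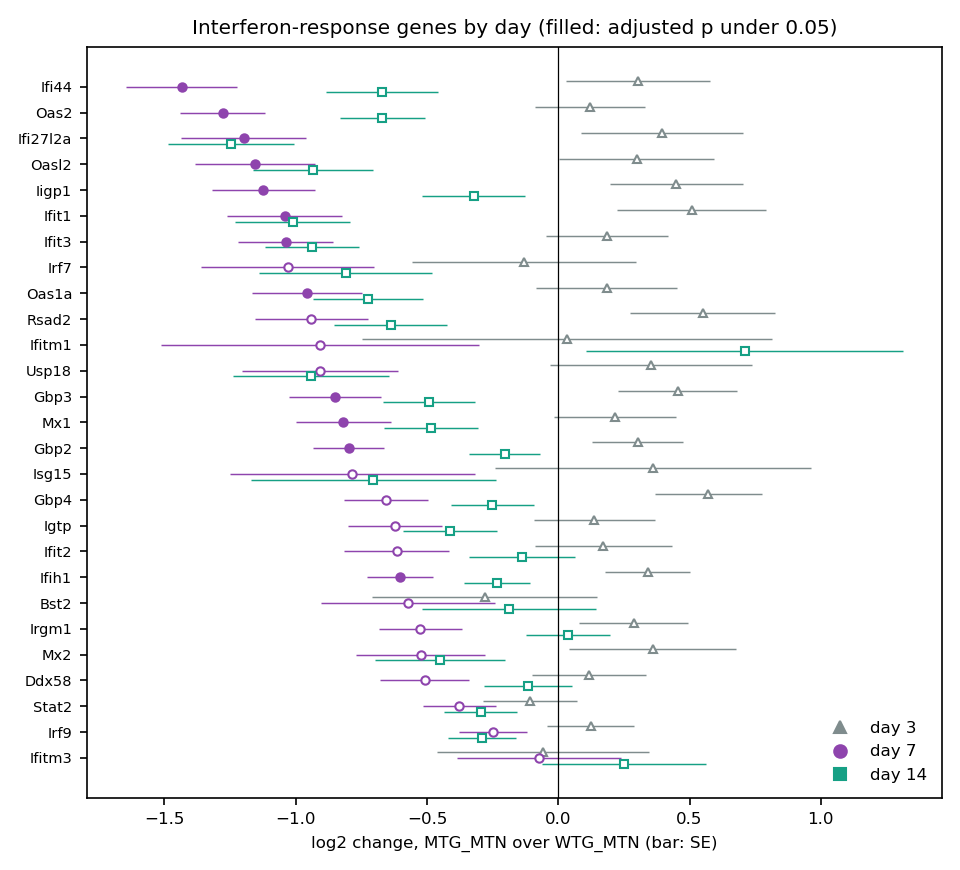
Log2 change of mutant over wild-type glia (x axis, with its SE as a bar) for 27 of the 28 genes of the interferon response list, ordered by their change at day 7, at day 3 (triangles), day 7 (circles) and day 14 (squares), filled where the adjusted p is under 0.05. All 27 drawn lie below 0 at day 7, where 12 of them pass, and 23 lie above 0 at day 3, where none passes.

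Among the largest decreases at day 7 was that of Slc6a13, a GABA and taurine transporter of meningeal cells and blood vessels. It had 5.77 and 5.92 rescaled RPKM in mutant glia, against 36.2 and 45.6 in wild-type glia (-2.60, SE 0.20, adjusted p = 0.000153). At day 3 both mutant libraries (13.3 and 9.11) lay above the wild-type one (8.14), and at day 14 the groups overlapped. Angptl7, a secreted angiopoietin-like protein, had 1.79 and 1.76 in mutant glia, against 13.0 and 13.2 in wild-type glia (-2.34, adjusted p = 0.000698). Enpp2 (-2.70) and Rec8 (-2.10) complete the 5 largest decreases with a symbol and with uc009tzo.1. Of the 10 fibroblast and meningeal markers, 2 passed at day 7, Slc6a13 and Pdgfra (-1.09; 1 of the 2 without any 1 library of day 7, with correlated libraries, without the replicate block or with the values as deposited, and 0 with the 11 libraries alone), all 10 changes were below 0 and their median was -0.54. Over all entries 1.34% were lower at day 7. At the other days most of these markers went the other way. At day 3, 8 of the 10 were above 0 (median 0.19), and at day 14 again 8 (median 0.46). The markers summed to 875 and 749.5 in mutant glia at day 7, against 1471 and 1506 in wild-type glia, and the part of this list as a whole in the change of single genes was not tested. In bulk RNA, fewer cells of a type and less RNA per cell cannot be told apart. Dcn, an abundant fibroblast proteoglycan, had 116 and 104 in mutant glia, against 245 and 226 in wild-type glia, while Ogn had 80.5 and 130, against 109 and 122. The 14 microglia and macrophage markers were all below 0 at day 7, with a median of -0.34, and Ptprc, the pan-leukocyte gene of CD45, was the one that passed (-0.67, adjusted p = 0.0211), though not without any 1 library of day 7, nor with correlated libraries, the values as deposited, no replicate block or the 11 libraries alone.

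A few more of the lower genes at day 7 are named here after their values were seen, and stand for no list. Mrc1, the mannose receptor of macrophages at the borders of the brain, had 6.74 and 12.6 rescaled RPKM in mutant glia at day 7, against 31.1 and 48.2 in wild-type glia (-1.95, adjusted p = 0.000365). At day 14 the order was not the same, with 36.0 and 80.5 in mutant glia, against 30.5 and 42.0 in wild-type glia. Adgre1, the macrophage gene of F4/80, changed by -1.11 at day 7, and the chemokine genes Ccl11 and Cxcl10 by -1.75 and -1.46. The gap junction genes Gjb6 (-1.75) and Gjb2 (-1.59), which astrocytes and meningeal cells use, were lower at day 7. Gjb6 was the astrocyte marker with the largest change and the only one of 12 that passed there, where 1.34% of all entries were lower.

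Fewer genes were higher than lower in mutant glia at day 7, and outside the Y chromosome Pianp and Ctse had the largest increases. Pianp, which encodes a neural ligand of the receptor PILR-alpha, had 18.1 and 14.0 rescaled RPKM in mutant glia, against 0.337 and 0.395 in wild-type glia (3.63, SE 0.74, adjusted p = 0.0341). It was also low, at 0.449, in mutant library 2 of day 14. Ctse, the protease cathepsin E, had 8.46 and 13.0 in mutant glia, against 0.721 and 1.37 in wild-type glia (2.51, adjusted p = 0.0165), and its second entry changed by 0.83. Both genes swung as widely between libraries of mutant glia as between genotypes. Among others named after their values were seen, Klk6, a protease of oligodendrocytes, changed by 1.38, and Alox5, which starts leukotriene synthesis, by 1.19 (adjusted p = 0.000365). The oligodendrocyte markers summed to 142 and 187 in mutant glia at day 7, against 104 and 125 in wild-type glia; 9 of 10 were above 0 and none passed. Of 22 trophic factors, 1 passed at day 7, Nrg1, neuregulin 1 (0.59, adjusted p = 0.0165), and of 13 Notch genes 1, Notch3 (0.51). Of 25 Wnt genes, Wnt7a was higher (0.98) and Wnt4 lower (-1.66), and of 27 TGF-beta ligands, receptors and SMADs, the co-receptor Eng was higher (0.87) and Bmp2 lower (-0.94). Over all entries 0.42% were higher and 1.34% lower at day 7, and 24 of 47 lists held a call there. Single calls such as these are therefore not results about their lists.

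At day 14, 7 entries passed (0.049% of those tested), all lower in mutant glia. Cldn11 encodes a tight junction protein of myelin and of the membranes around the brain. It had 6.03 and 3.94 rescaled RPKM in mutant glia at day 14, against 20.01 and 20.31 in wild-type glia (-1.84, SE 0.16, adjusted p = 0.00052). At day 3 its order was the other way, with 121 and 88.0 in mutant glia, against 64.0 in wild-type glia. The oligodendrocyte markers as a whole summed to 82.6 and 40.9 in mutant glia at day 14, against 106 and 305 in wild-type glia. Wild-type library 2 of day 14 held Mbp at 52.3 and Sox10 at 39.7, where wild-type library 1 had 5.63 and 0.764; mutant glia had Mbp at 2.81 and 4.83. All 10 markers were below 0 (median -1.58) and Cldn11 was the one that passed. Cldn11 was as low relative to wild-type library 1 as to library 2, although Mbp was not.

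Odf3b, Cfap161 and Efcab1, whose products belong to motile cilia, were among the 7 calls at day 14; they were grouped after their values were seen, and no list of ciliary genes was tested. Odf3b passed at day 14 in 17 of 21 settings, Efcab1 in 6 and Cfap161 in 3. Odf3b, a protein of ciliary microtubules, had 4.35 and 0.734 rescaled RPKM in mutant glia, against 10.2 and 2.67 in wild-type glia (-1.07, SE 0.10, adjusted p = 0.00158). Its change over days 3 and 14 together was -0.97, so it was not particular to day 14. Cfap161 had 6.12 and 1.21 in mutant glia, against 10.6 and 3.35 in wild-type glia (-0.84, adjusted p = 0.0338), and Efcab1, a calcium-binding protein of the ciliary dynein arm, had 1.35 and 0.279, against 4.98 and 1.36 (-1.11, adjusted p = 0.0316). In all 3 the groups overlapped or nearly met, and it is within each number that mutant glia were lower. The ependymal and choroid plexus markers, the list of the cells that bear such cilia, summed to 128.5 and 29.0 in mutant glia, against 164 and 55.2 in wild-type glia; of 8 tested none passed, 1 was above 0 and the median was -0.57. Foxj1, which switches on the genes of motile cilia, had 86.3 and 18.2, against 92.3 and 36.8. Their part in the lower ciliary genes was not tested. The other calls were Aoc3, Mia, a small secreted cartilage protein (-1.35, adjusted p = 0.0316), and Gpc1, a heparan sulfate proteoglycan (-0.90, adjusted p = 0.0316). Leaving out any 1 library left 2 to 4 of the 7, or 7 where that library was wild-type library 2 of day 3. Of the 7, 3 passed with the values as deposited and 1, Aoc3, without the block for the replicate number.

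At day 3, where 1 wild-type library stood against 2 mutant ones, no entry passed (0.0% called; limma), 364 had an unadjusted p under 0.05 and voom also called 0. With no filter on low values, 5 passed. The effect of the glial genotype itself differed between days for 31 entries (F test, 0.217%), among them Enpp2, Slc6a13, Angptl7, Mrc1, Gjb6, Cldn11, Odf3b, Eif2s3y and Ddx3y. Slc7a11, which imports cystine for glutathione, was another: its change was 0.52 at day 3, -1.74 at day 7 and 0.93 at day 14 (adjusted p = 0.0362). In the contrast of day 14 with day 3, 1 entry passed (0.007%), Cldn11, at -2.27 (SE 0.25, adjusted p = 0.0207).

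Most pathways looked at held no gene that passed in the 3-day mean, where 0.14% of all entries were lower and 0.028% higher. Of the 47 lists with a tested gene, 6 had one, namely the sex-linked genes (Eif2s3y and Ddx3y), the oligodendrocyte markers (Cldn11), the fibroblast and meningeal markers (Slc6a13, -0.89, adjusted p = 0.0276), the interferon response (Oas2), the Wnt genes (Wnt4) and the proteoglycans (Sparcl1). The medians of the other 41 ran from -0.37 to 0.17. Of 25 antioxidant genes none passed in the mean, with a median of 0.02, and Sod1 had the largest change. At day 7, where 1.34% of all entries were lower, Slc7a11 (-1.74) and the extracellular dismutase Sod3 (-1.14) were lower. Of the ALS genes, the largest change was that of Vcp, an ATPase that extracts proteins for degradation, at 0.61 (adjusted p = 0.774), and Ang, the ribonuclease angiogenin, was lower at day 7 (-0.74, adjusted p = 0.0383). Of 19 heat shock genes none passed; Hspa8, a constitutive chaperone, had the largest change, -0.82 (adjusted p = 0.413). Of 24 genes of the unfolded protein response none passed, the largest being Chac1 (0.27), although 24 of their 25 entries were above 0 at day 14 (median 0.28). Over all entries 52.5% were above 0 there. Summed over this list, mutant glia had 1748 and 2957 at day 14, against 1763 and 1691 in wild-type glia. Mutant glia were thus higher in number 2 alone.

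Few genes through which astrocytes serve neurons passed the threshold, but few of all entries did. Over all entries 0.14% were lower and 0.028% higher in the mean, and 1.34% and 0.42% at day 7. In lists this short, no call in the mean is near that share. Of 16 genes for glutamate and potassium handling none passed in the mean, with a median of -0.03; Slc1a2, the main glutamate transporter, changed by -0.23 and Aqp4, the water channel of astrocyte endfeet, by -0.06. Gfap, the filament protein that rises in reactive astrocytes, had 144 and 214 rescaled RPKM in mutant glia at day 7, against 60.5 and 97.7 in wild-type glia, and 210 and 77.9 at day 14, against 178 and 292; neither difference passed (adjusted p = 0.276 and 0.635). Of 15 reactive astrocyte genes and 12 genes of the neurotoxic type of astrocyte none passed in the mean; Cxcl10 (-0.51) and Serping1 (-0.41) had the largest changes. None of 27 TGF-beta ligands, receptors and SMADs passed in the mean, where Bmp7 had the largest change (-0.55), and none of 22 trophic factors, where Fgf7 did (0.78, adjusted p = 0.987). Of 22 glycolysis genes, 1 passed at day 7, Pgam1 (1.15, adjusted p = 0.0405), and 19 were above 0 there (median 0.32). Of 22 lysosome genes, the protease gene Ctsc came closest in the mean (-0.44, adjusted p = 0.0771) and passed at day 7 (-1.20, adjusted p = 0.000751).

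The effect of the glial genotype did not differ detectably with the genotype of the neighbouring neurons. Whether mutant neurons changed glia of a given genotype was not tested. The difference between the effect of the glial genotype beside mutant neurons and that beside wild-type neurons passed for no entry (0.0%; limma; voom also called 0), and 72 entries had an unadjusted p under 0.05. With no filter on low values 3 passed. Beside wild-type neurons 36 entries differed between mutant and wild-type glia (0.252%). That comparison used other libraries, but these resemble the libraries of the same glial genotype, day and number beside mutant neurons so closely that it is not an independent repeat. Aoc3 changed by -1.64 beside mutant neurons and by -1.56 beside wild-type neurons, where mutant glia had 0.0576 to 1.2 rescaled RPKM and wild-type glia 2.5 to 3.22. Enpp2 changed by -1.27 and -1.04, Slc6a13 by -0.89 and -0.94, Cldn11 by -0.64 and -0.71, and Odf3b by -0.64 and -0.44.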

How the data were processed

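Mouse glia, neurons and spinal cord were measured by RNA sequencing. The authors deposited RPKM values per entry, made with Bowtie on mm9, per the submitters' processing notes; the counting tool and annotation version are not given in the sources used here, nor whether strand was used. In 100% of values the RPKM were multiples of whole reads (22784 entries above 0, tolerance 0.02), so depth was recovered. Of 27389 entries, 127 had no value and were left out; 18854 were named by gene ID and 539 by an older symbol in RefSeq.

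RPKM of the 23 glial libraries were divided by median-of-ratios factors. Entries at 1 or more in at least 2 libraries were kept (14279). log2(value + 1) was fitted with limma 3.58.1 (R 4.3.3), using 12 group means (pairing by day) and a block for the replicate number within each day (8 residual degrees of freedom), trended empirical Bayes and Benjamini-Hochberg adjustment. The fit took libraries of 1 glial genotype, day and number beside mutant and wild-type neurons as independent, although they resembled each other (correlation 0.563). Its p-values may therefore be too small. Tables and figures used Python 3.11.15. The method was run on simulated data with independent errors in each library, which could not show the effect of such resemblance. Residuals of same-day, same-number libraries correlated above 0.1 in 15 of 15 pairs (0.228 to 0.892), so the numbers were taken as pairing them. The 5 pairs of 1 glial genotype ran from 0.673 to 0.892. For mutant with wild-type glia beside mutant neurons the correlation was 0.708 at day 7 and 0.245 at day 14. At day 3, with 1 wild-type library, it could not be computed. The replicates of a group were not copies: they differed by more than sampling noise in all 5 groups of 2. Libraries of 1 glial genotype, day and number beside the other neurons were not checked in this way.

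Named genes were Sod1, the 15 largest changes each way among mean calls of 1 sign in 5 pairs, the 5 largest each way per day, and up to 6 calls, or else the largest change, of each list. Other list members, and genes so marked in the text, were named after their values were seen. Some genes are not reported here. The comparison, the members and the lists were chosen with earlier results of these data known. Alternatives were other scalings, pseudocount, filter, block, voom on recovered reads, leaving out each library, and 3 added after seeing the data.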

Additional observations from a re-analysis of the deposited data

Results flagged for a closer look

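A library far from the others of its genotype, over the 3 days together, was found in 12 of 90 sets of values examined; chance gives about 1 in 20, and day differs within a set. The gap to the nearest library, as a share of the whole range, is given for each. In mutant glia the scaling factor (0.938) stood apart in library 1 of day 3, and the summed markers of motor neurons (0.709), pluripotent cells (0.874), pericytes and smooth muscle (0.739) and Hox position (0.651) each had 1 library apart. The same held in mutant glia for uc008wje.1 (0.632), Csta2 (0.737) and Rec8 (0.74). In wild-type glia it held for the fibroblast and meningeal markers (0.731, low in library 2 of day 14), for Aoc3 (0.75), for Cldn11 (0.901, high at day 3, where there is 1 library) and for Odf3b (0.718, low in library 2 of day 14).

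The effect of the glial genotype differed between days by a test of the difference itself for 31 entries, and between days 14 and 3 for Cldn11 (-2.27).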

How the results depend on the processing

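Every call in the 3-day mean and at day 14 kept its direction under all alternatives, but counts did not hold. Numbers are entries called. Without the replicate block, 2 were called in the mean, 16 at day 7, 1 at day 14, 4 beside wild-type neurons and 0 for each difference between days. With the values as deposited there were 11 in the mean, 3 at day 14 and 22 beside wild-type neurons; with those values and no replicate block, 2, 1 at day 7, 0 at day 14, 1 beside wild-type neurons and 0 between days. With no filter, 5 were called at day 3, 3 at day 14, 6 for day 14 minus day 3, 55 between any days, 3 for the neurons and 23 beside wild-type neurons. voom gave 386 at day 7, 20 at day 14 and 129 between any days. The mean of days 7 and 14 gave 162, and of days 3 and 14, added after seeing the data, 2. The 11 libraries alone with 1 effect and a block of day by number gave 1, Aoc3; with the same means and blocks, added later, they gave 0, 4 at day 7 (Eif2s3y, both entries of Ddx3y and uc009tzo.1) and 0 at day 14. Treating libraries of 1 glial genotype, day and number as correlated (0.563), also added later, gave 16 in the mean, 154 at day 7 and 4 at day 14. Leaving out 1 library gave 2 to 163 in the mean, 24 to 262 at day 7, 0 at day 3, 2 to 11 at day 14, 0 to 79 between any days, 0 to 1 for day 14 minus day 3, 0 for the neurons and 20 to 87 beside wild-type neurons; 163 arose without wild-type library 2 of day 3, where the mean covers days 7 and 14. The causes were not tested. The interferon count at day 7 (13) was 0 without the replicate block, 0 with the 11 libraries alone and 9 as deposited. Signs in the 3-day mean turned for genes not called there. With days 3 and 14 alone they were Pianp (-0.47), Ctse (-0.92), uc009tzo.1 (1.34), Angptl7 (0.24), Gjb6 (0.0717), Pdgfra (0.0103) and Kdr (0.0623). With 1 library left out, Ctse ranged from -0.00901 to 0.66, Hoxa5 from -0.12 to 0.18, Col1a2 from -0.0692 to 0.87, Rrm2 from -0.00573 to 0.26 and Pappa from -0.00948 to 0.60. Hoxa5 was -0.12 over days 7 and 14, -0.0583 with a pseudocount of 0.1, -0.0209 with correlated libraries and -0.0693 with voom; Dppa5a was 0.10 with no replicate block and 0.24 with deposited values too. The number of libraries, 2 or fewer a day and genotype, limits all counts.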
